A study of Homo sapiens with 8 samples.

Results

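The chromatin around the ASH1L gene was examined for differences between cells that carry ASH1L and cells in which it was disrupted. ASH1L is transcribed from the minus strand of chromosome 1, and its neighbourhood comprised 1 Mb on either side of it without the gene itself, chr1:154335268-155335267 (the flank before ASH1L in coordinates) and chr1:155563163-156563162 (the flank after ASH1L) in build hg38. Its members were all accessible sites in these intervals, where a site is the merged extent of the overlapping regions called in any of the 8 libraries. There were 569 such sites, 285 before and 284 after ASH1L, of 547779 in the genome. The rule took sites by position only and used no measured value. The members and the gene groups below were, however, chosen with earlier results of these data known.

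The cells were U2OS, an established line from a human osteosarcoma, and the assay was ATAC-seq, which uses the transposase Tn5 to cut accessible DNA and tag it with adapters. The 4 groups of 2 libraries were wild-type (WT) cells without UV, WT cells 3 h after exposure to 20 J per square metre of UV-C, ASH1L-/- cells without UV and ASH1L-/- cells 3 h after the same dose. The ASH1L-/- cells came from U2OS cells by CRISPR/Cas9 cutting in exons of ASH1L and from the growth of single colonies, so that genotype and colony cannot be told apart in these data. All cells, controls included, were treated with DNase before harvest.

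ATAC-seq reads pile up where nucleosomes are displaced, at promoters, enhancers and insulators. ASH1L is a histone H3 lysine methyltransferase of the Trithorax group that marks active genes. The DNA on either side of it is a gene-dense stretch that holds the ephrin ligands EFNA1, EFNA3 and EFNA4, the interleukin-6 receptor gene IL6R, the potassium channel gene KCNN3, the mucin gene MUC1 and LMNA, which encodes the nuclear lamins A and C.

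Of the sites on which the results turn, 3 are shown first, as the 200 bases of hg38 around the strongest summit, plus strand. Capitals mark a match to any of 7 short motifs, each searched on both strands: AP-1 TGANTCA, TEAD GGAATG, RUNX TGTGGTT, ETS CCGGAAG, SP/KLF GGGCGGG, NRF1 core GCGCATG and AGGGGGC, which is part of the CTCF motif. The IL6R intron site had the largest fall in read pileup in ASH1L-/- cells. The LMNA intron site was found in WT libraries only. The EFNA3 promoter site shown, 858 bases from a start of EFNA3, was found only after UV. Another promoter site of EFNA3, chr1:155084367-155086202, was found in all 8 libraries.
IL6R intron, chr1:154418368-154418567: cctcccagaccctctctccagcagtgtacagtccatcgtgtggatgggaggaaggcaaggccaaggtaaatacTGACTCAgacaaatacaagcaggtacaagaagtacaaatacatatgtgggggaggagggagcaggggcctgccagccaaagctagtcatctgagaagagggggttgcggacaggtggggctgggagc
LMNA intron, chr1:156086307-156086506: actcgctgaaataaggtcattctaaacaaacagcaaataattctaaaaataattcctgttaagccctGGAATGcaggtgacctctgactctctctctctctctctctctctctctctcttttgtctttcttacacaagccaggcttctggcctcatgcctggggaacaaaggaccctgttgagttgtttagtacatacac
EFNA3 promoter, chr1:155077879-155078078: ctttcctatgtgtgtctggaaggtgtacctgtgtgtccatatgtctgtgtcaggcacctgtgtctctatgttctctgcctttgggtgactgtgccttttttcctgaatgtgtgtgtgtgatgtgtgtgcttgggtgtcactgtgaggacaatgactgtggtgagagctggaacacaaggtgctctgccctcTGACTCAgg

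The IL6R intron sequence held an AP-1 match, and its 300-base window held 3. AP-1 is a dimer of FOS and JUN proteins that responds to growth signals and stress. Within 300 bases around the summit, AP-1 letters were found at 14.9% of the neighbourhood sites and 18.6% of all sites, SP/KLF letters at 9.49% and 3.88%, and the CTCF part at 9.67% and 5.55%. TEAD letters were at 16.3% of the neighbourhood sites and 19.3% of all, RUNX letters at 5.10% and 6.90%, ETS letters at 2.28% and 1.59%, and the NRF1 core at 1.93% and 1.19%.

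The neighbourhood was rich in promoters. Of the 569 sites, 159 (27.9%) lay within 1000 bases of a transcription start, against 8.36% of all sites, 288 (50.6%) lay in gene bodies and 122 (21.4%) between genes. Sites found in every library numbered 125 (22% of the neighbourhood against 11% of all sites), 74 before and 51 after ASH1L, and 62 of these 125 (49.6%) were promoters. At the other end, 313 sites (55.0%) were called in a single library, against 60.5% of all sites.

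Library depth, read as the mean genome-wide pileup, ranged from 1.39 to 5.87, with both extremes in ASH1L-/- cells without UV, and the libraries held 149114 to 210944 sites. The study describes its ATAC-seq values as coming from independent experiments, and p-values measure the spread between these libraries. Promoter regions at the mesenchymal and osteosarcoma markers RUNX2, VIM and FOSL1 were present in all 8 libraries, at COL1A2 in 7 and at TWIST1 in 2. Among markers of other cell types, CDH1 and EPCAM had one in 8 libraries, PTPRC and SPI1 in 1 and CD3E in 0. Within ASH1L itself, WT libraries held 14, 13, 11 and 9 sites, in the order no UV replicates 1 and 2 and post UV replicates 1 and 2, and ASH1L-/- libraries 4, 3, 4 and 9. Per 1000 sites of the library this was 0.0708 in WT and 0.0281 in ASH1L-/- cells on average, and the groups did not overlap. Peak lists cannot show the deletion itself.

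The question for the neighbourhood was whether it differed between genotypes beside the gene that was cut. ASH1L-/- libraries had fewer sites there. WT libraries held 254, 261, 240 and 244 neighbourhood sites, in the same order as above, and ASH1L-/- libraries 211, 186, 209 and 224. Every ASH1L-/- library lay below every WT library. As a share of the library's own sites, WT averaged 1.51 ± 0.0549 per 1000 (SD, n = 4) and ASH1L-/- 1.19 ± 0.143 per 1000 (SD, n = 4), a ratio of 0.788. The exact permutation test, two-sided over the 70 ways to split the libraries 4 and 4, gave p = 0.0286 before and after Benjamini-Hochberg adjustment over 3 values, which is the smallest p it can give. The share fell on both sides, from 0.835 to 0.676 per 1000 before ASH1L (ratio 0.810) and from 0.677 to 0.516 per 1000 after it (ratio 0.762), with p = 0.0286 in the same exact test for each. With 7 libraries the exact p became 0.0571 for both flanks together without WT no UV replicate 1, WT 3 h post UV replicate 1 or WT 3 h post UV replicate 2, at differences of -0.32, -0.30 and -0.32 per 1000, and for the flank after ASH1L without any 1 of the WT libraries.

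**Figure D1:**
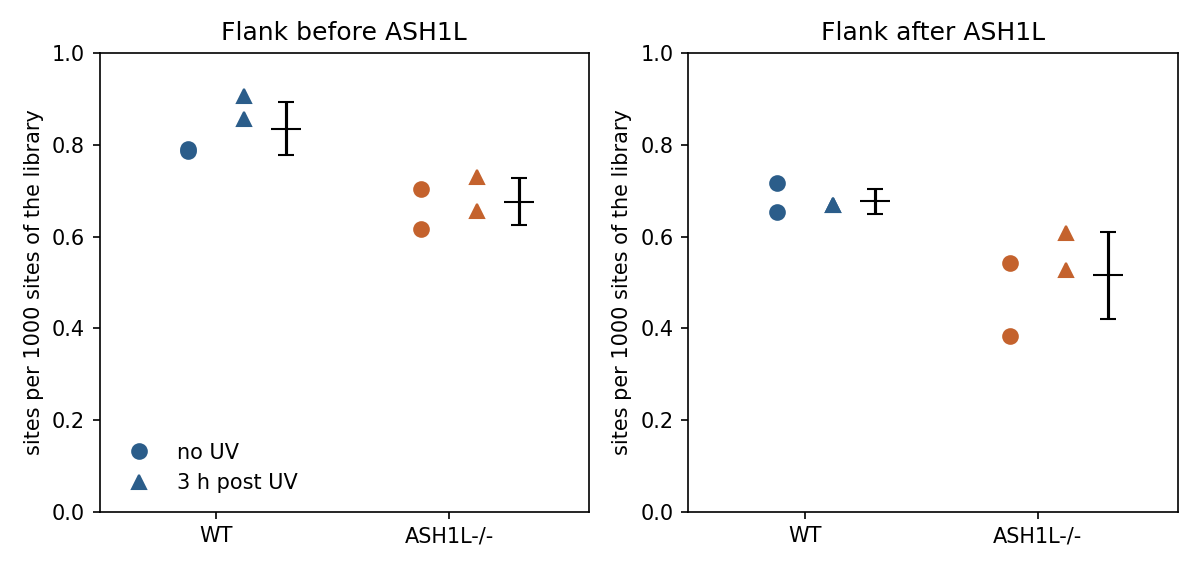
Sites in each flank of ASH1L per 1000 sites of the library, 1 point per library, circles without UV and triangles 3 h after UV. Bars at the right of each genotype give the mean and SD of 4 libraries. All ASH1L-/- points lie below all WT points in both panels, with means of 0.676 against 0.835 before the gene and 0.516 against 0.677 after it.

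The deficit was spread over both flanks. In 100-kb bins, the mean share was lower in ASH1L-/- than in WT libraries in all 20 bins. The ratio ranged from 0.498, in the bin 200 to 300 kb after ASH1L that holds part of GON4L, to 0.934, in the outermost bin after ASH1L. In the bins next to the gene it was 0.830 before and 0.626 after. In only 2 bins, both in the flank before ASH1L, did the groups not overlap.

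**Figure D2:**
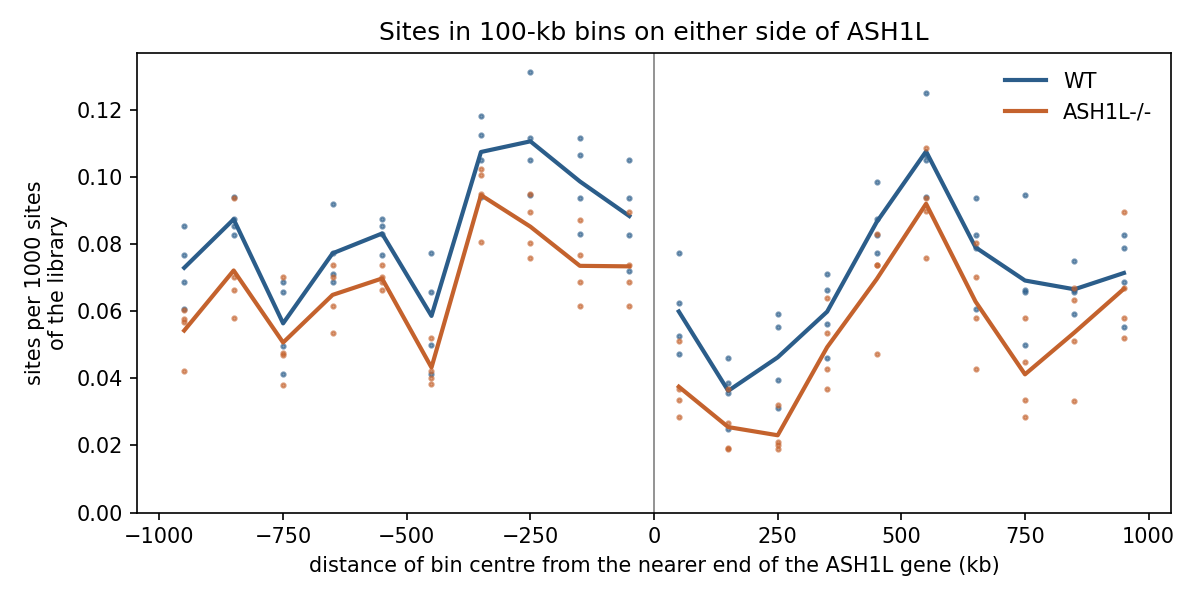
Sites per 1000 sites of the library in 100-kb bins by distance from the nearer end of ASH1L, negative before and positive after the gene. Dots are libraries and lines are genotype means. The ASH1L-/- line runs below the WT line in every bin, and the points of the genotypes overlap in 18 of 20 bins.

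The lower number of sites was not particular to the neighbourhood on its chromosome arm. Windows of 1 Mb over the genome were fitted with limma on log2 of the number of sites plus 1, scaled by the sites of the library. The flank before ASH1L was lower in ASH1L-/- cells by a log2 difference of -0.30 (SE 0.085, limma adjusted p = 0.0044) and the flank after it by -0.41 (SE 0.095, adjusted p = 0.000683). Of 2822 windows, 17.4% were called lower and 12.9% higher. Chromosome 1 has a stretch of 18304682 bases without any site around its centromere. It lies between base 125119964, where a site ends, and base 143424647, where the next site starts. On the ASH1L side of this stretch, 93 of 103 other windows were lower and 0 higher, with a median log2 difference of -0.54, which is below that of either flank. On its other side 1 of 122 windows was lower and 10 were higher, with a median of 0.06. These stretches were compared after the values of the flanks had been seen.

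**Figure D3:**
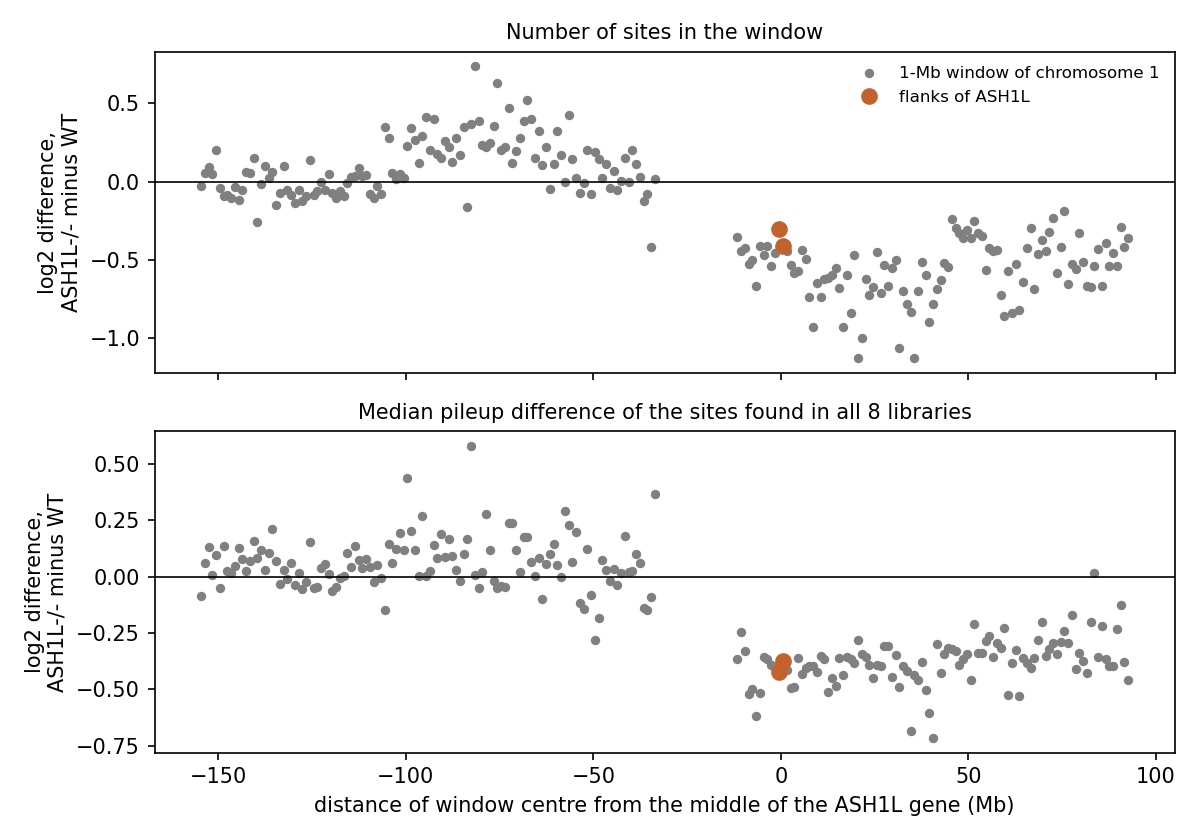
Log2 difference, ASH1L-/- minus WT, in 1-Mb windows of chromosome 1 by distance from the middle of ASH1L. The upper panel gives the number of sites and the lower panel the median difference in read pileup of the sites found in all 8 libraries. Windows on the ASH1L side of the gap lie below 0 in the upper panel, the 2 flanks among them at -0.30 and -0.41, and windows on the other side lie around 0.

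Where the same site was called in every library, 2 quantities were read. Fold enrichment is the ratio of the read pileup at the summit to the local background of the same library, and pileup is the number of reads over the summit. In fold enrichment, few neighbourhood sites passed the test between genotypes. With limma on quantile-normalised log2 fold enrichment, 2 of the 125 sites were higher in ASH1L-/- cells (0.472% of all 60324 such sites were) and 0 were lower (0.491% of all). The median log2 difference was 0.02, against 0.01 over all sites, and 11 of the 125 (8.8%) had an unadjusted p below 0.05, against 12.7% of all.

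Pileup gave another picture. It was read as a result of its own after the pileups of the flanks had been seen. With limma on quantile-normalised log2 pileup, 27 of the 125 sites were lower in ASH1L-/- cells (4.55% of all sites were) and 2 were higher (4.07% of all). The median log2 difference was -0.41, a ratio of 0.752, and 119 of 125 sites lay below 0. At 40 sites (32%) all ASH1L-/- libraries lay below all WT libraries, against 5.70% of all sites. Without normalisation between libraries of unequal depth 0 sites were lower and 1 was higher, at a median of -0.46 against -0.0098 over all sites. On the rest of the same arm the median was -0.36 with 316 of 2249 sites lower, and on the other arm it was 0.05. Leaving out a library moved the count of lower sites in the neighbourhood between 7 and 45. It was 8 without WT 3 h post UV replicate 1 or replicate 2, 7 without ASH1L-/- 3 h post UV replicate 1, 9 without ASH1L-/- 3 h post UV replicate 2, 12 and 15 without ASH1L-/- no UV replicates 2 and 1, and 45 without WT no UV replicate 2.

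The local background moved with the pileup. At the 125 sites its median, over the genome mean of the library, was 3.22, 3.54, 4.02 and 5.19 in WT libraries and 1.78, 2.21, 2.95 and 2.96 in ASH1L-/- libraries. These groups did not overlap. On the rest of the arm it was 1.76 to 2.61 in WT and 1.23 to 1.61 in ASH1L-/- libraries, again without overlap, and on the other arm the groups overlapped, at 1.87 to 2.61 and 1.73 to 2.23. The part of the background in the lower counts of sites and pileups was not tested. A smaller number of DNA copies and less open chromatin cannot be told apart by pileup in peak lists.

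**Figure D4:**
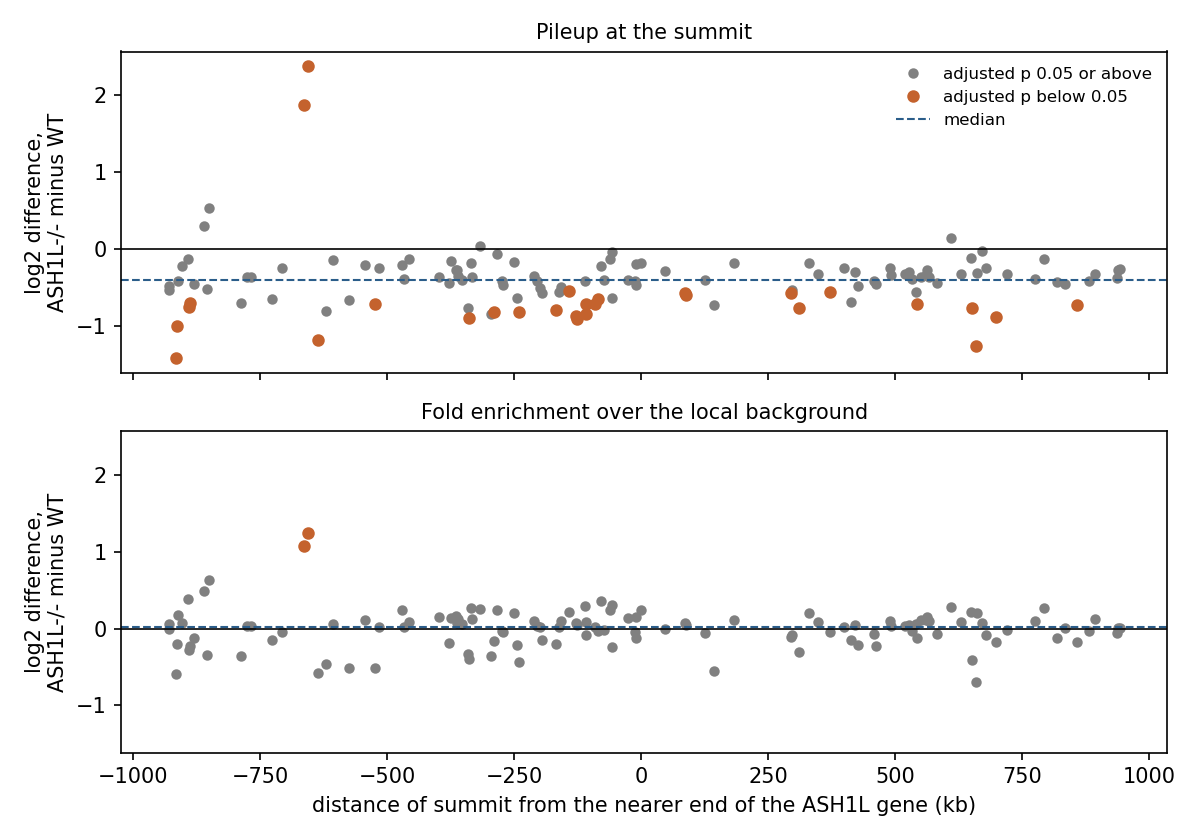
Log2 difference, ASH1L-/- minus WT, of the 125 sites found in all libraries by distance of the summit from the nearer end of ASH1L. The upper panel is pileup, with a median of -0.41 and 29 sites past the threshold, and the lower panel is fold enrichment, with a median of 0.02 and 2 past it. The same 2 points, 29451 and 36674 bases from the nearest transcription start of KCNN3, stand highest in both panels.

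The sites that rose in ASH1L-/- cells were a pair between genes, nearest to KCNN3, which encodes a small-conductance calcium-activated potassium channel. At chr1:154678453-154679472, 29451 bases from a KCNN3 start, the fold enrichment was 4.31, 4.43, 2.70 and 3.27 in WT and 5.77, 5.97, 10.1 and 11.2 in ASH1L-/- libraries. Its normalised pileup was 27.0, 16.8, 10.2 and 8.22 reads in WT and 121, 109, 56.9 and 46.6 reads in ASH1L-/- libraries. The groups overlapped in neither measure. The log2 difference was 1.24 in fold enrichment (SE 0.197, limma adjusted p = 0.0048) and 2.37 in pileup (SE 0.216, adjusted p = 0.00015), the latter a ratio of 5.18.

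At chr1:154671116-154672159, 36674 bases from a KCNN3 start, the fold enrichment was 5.74, 6.58, 3.95 and 3.60 in WT and 10.8, 8.37, 10.6 and 8.57 in ASH1L-/- libraries. Its normalised pileup was 47.2, 42.0, 20.8 and 14.2 reads in WT and 211, 129, 70.05 and 62.1 reads in ASH1L-/- libraries. Again no library of either genotype reached into the other's range. The log2 difference was 1.07 in fold enrichment (SE 0.203, limma adjusted p = 0.0150) and 1.87 in pileup (SE 0.206, adjusted p = 0.000434). Its call in fold enrichment was lost without WT 3 h post UV replicate 1 (adjusted p = 0.0526) or replicate 2 (0.103), ASH1L-/- no UV replicate 1 (0.0869) or ASH1L-/- 3 h post UV replicate 1 (0.119). Without normalisation the calls of the pair in fold enrichment were lost (adjusted p = 0.103 and 0.147), as was that of the second site in pileup (0.168), at like differences. The local background rose at this pair of sites too, unlike at the other 123 of the 125.

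The sequence at the summits of this pair is repeated in the genome: 768 sites, the pair included, held at least 1 of the words of 20 bases that the pair has in common. Outside the neighbourhood, 104 such sites were found in every library. Of these 104, 16 (15.4%) were higher in pileup in ASH1L-/- cells and 3 were lower, and 5 (4.81%) were higher in fold enrichment, against 4.07% and 0.472% of all sites called higher, so that a rise was seen at sites with these words elsewhere too. This search was made after the pair had been seen. Reads of low mapping quality, which repeats give, had been removed before peaks were called.

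Sites in the introns of IL6R, the receptor of interleukin-6, were among those whose pileup differed most between genotypes, lower in ASH1L-/- cells. At chr1:154418153-154418803, the AP-1 site printed above, normalised pileup was 96.7, 110, 151 and 118 reads in WT and 34.0, 35.6, 55.3 and 51.7 reads in ASH1L-/- libraries. All ASH1L-/- values lay below all WT values, a log2 difference of -1.42 (SE 0.164, limma adjusted p = 0.000529). Its fold enrichment was 7.87 to 11.2 in WT and 4.01 to 7.18 in ASH1L-/- libraries, also without overlap, but with an adjusted p of 0.153. A second intronic site, chr1:154420110-154420628, had a pileup of 96.7 to 108 reads in WT and 43.7 to 62.9 reads in ASH1L-/- libraries (log2 difference -1.01, adjusted p = 0.00449). At the IL6R promoter the difference in pileup was -0.54 (adjusted p = 0.127). IL6R itself held 13 to 15 sites in WT and 11 to 14 in ASH1L-/- libraries.

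PMF1 encodes a subunit of the MIS12 kinetochore complex. At its intronic site chr1:156222895-156223507, normalised pileup was 51.5, 48.2, 52.3 and 46.5 reads in WT and 17.0, 17.4, 23.9 and 22.8 reads in ASH1L-/- libraries, a log2 difference of -1.27 (SE 0.193, limma adjusted p = 0.00249). The groups did not overlap. Its fold enrichment differed by -0.69 (adjusted p = 0.0982). In an exon of KCNN3, chr1:154697588-154698205, pileup was 33.1 to 45.9 reads in WT and 8.90 to 29.8 reads in ASH1L-/- libraries (log2 difference -1.19, adjusted p = 0.0155). The KCNN3 intergenic sites thus rose and this exonic site fell.

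**Figure D5:**
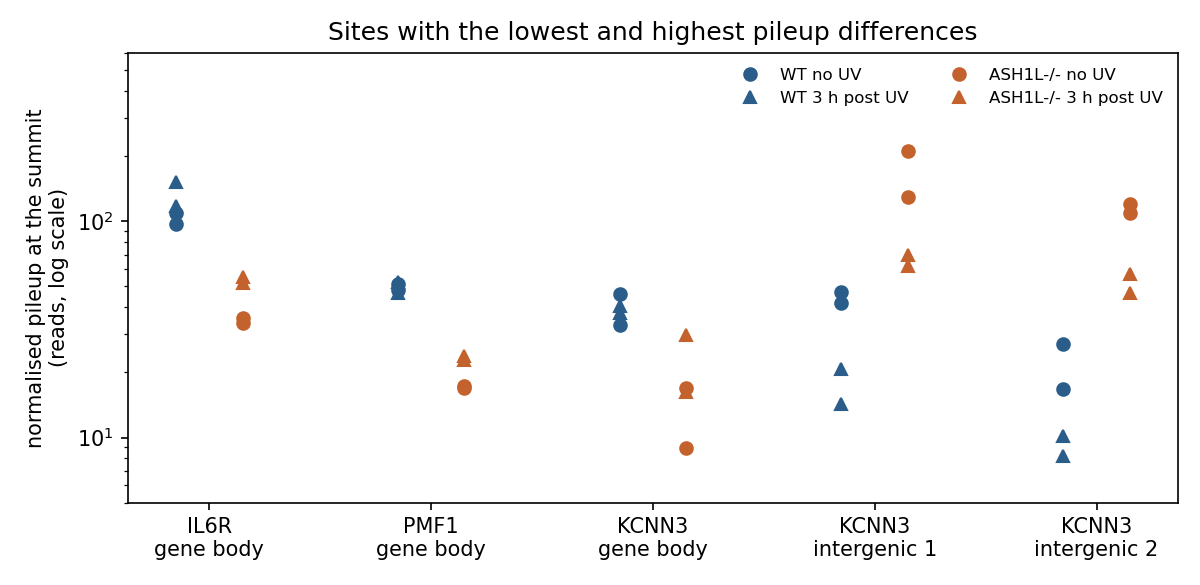
Normalised read pileup at the summit, on a log scale, for the 3 sites with the lowest and the 2 with the highest difference between genotypes, 1 point per library. The IL6R, PMF1 and KCNN3 gene-body sites have all ASH1L-/- points below all WT points, and the 2 KCNN3 intergenic sites have them above, at up to 211 reads.

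Presence or absence separated few sites. No neighbourhood site was found in all ASH1L-/- and in no WT library (0.187% of all sites were), and 3 were found in all WT and in no ASH1L-/- library (0.0769% of all sites). The first, chr1:154962244-154962589, lay 332 bases from a start of PYGO2, a cofactor of Wnt signalling, over an exon of the adaptor gene SHC1, and had fold enrichments of 2.56, 3.20, 3.15 and 5.30 in the WT libraries. The second, chr1:155112455-155113013, lay 15252 bases from EFNA1 and had 4.68, 5.42, 2.97 and 4.63. The third, the LMNA intron site printed above, at chr1:156086199-156086734, had 1.93, 5.58, 3.34 and 2.81. Leaving out ASH1L-/- 3 h post UV replicate 1 gave 5 sites of WT only, and leaving out WT 3 h post UV replicate 2, ASH1L-/- no UV replicate 1 or ASH1L-/- no UV replicate 2 gave 1 of ASH1L-/- only.

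Gene by gene, 69 protein-coding genes lay in or reached into the flanks, and 45 of them, with a mean of at least 2 sites, were fitted with limma on log2 of the number of sites plus 1, scaled by the sites of the library. Of these, 2 were lower in ASH1L-/- cells (2.36% of 12655 genes were) and 0 were higher (1.06% of all), and 6 (13.3%) had an unadjusted p below 0.05, against 14.7% of all. Below 0 lay 39 of 45 genes, against 60.1% of all genes, and the median log2 difference was -0.19 against -0.08. A value below 0 need not mean fewer sites. After scaling, CLK2, with 4 sites in every library, and ENTREP3, with 2 in every library, each had -0.08. Of the 69 genes, 59 had a promoter region in all 8 libraries and each had one in at least 1 library.

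CCT3, a subunit of the chaperonin that folds actin and tubulin, had 10, 7, 6 and 5 sites in WT and 3, 2, 2 and 6 in ASH1L-/- libraries. The ASH1L-/- 3 h post UV replicate 2 library lay within the WT range. The log2 difference was -1.05 (SE 0.246, limma adjusted p = 0.0243). GON4L, which encodes a transcriptional corepressor, had 11, 13, 7 and 5 sites in WT and 5, 3, 5 and 5 in ASH1L-/- libraries, with a difference of -0.89 (SE 0.203, adjusted p = 0.0214) and overlap at 5 sites. Both calls were lost without scaling by the library's number of sites (adjusted p = 0.331 and 0.199) and with regions of q below 0.05 only (0.0717 and 0.245), and both without each of ASH1L-/- no UV replicate 1, replicate 2 and ASH1L-/- 3 h post UV replicate 1 (0 genes lower). The call of CCT3 was also lost without WT no UV replicate 1 (adjusted p = 0.0801), and that of GON4L without WT no UV replicate 2 (0.0552), WT 3 h post UV replicate 1 (0.0869) or ASH1L-/- 3 h post UV replicate 2 (0.123). Next came MUC1, with 3, 2, 3 and 3 sites in WT and 2, 1, 1 and 1 in ASH1L-/- libraries (-0.83, adjusted p = 0.0573). MSTO1, which regulates the distribution of mitochondria, had 5, 7, 6 and 8 in WT and 3, 2, 6 and 5 in ASH1L-/- libraries (-0.73, adjusted p = 0.0744). MSTO1 begins 73 bases from ASH1L. Sites were counted over each gene with 1000 bases added at each end, so the MSTO1 count takes in the start of ASH1L. PYGO2 was the only fitted gene without overlap, with 3 sites in each WT and 2 in each ASH1L-/- library (-0.50, adjusted p = 0.323), and 1.86% of all genes were lower in this way. The WT-only site near a PYGO2 start, given above, is among the 3, so this is not a separate result.

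The genes next to ASH1L were RUSC1, FDPS and PKLR before it and MSTO1, YY1AP1 and DAP3 after it. RUSC1, a signalling adaptor 4154 bases away, had 3, 3, 4 and 3 sites in WT and 3 in each ASH1L-/- library. FDPS, the farnesyl diphosphate synthase of the cholesterol pathway, had 1 site in every library. PKLR, pyruvate kinase of liver and red cells, had 1 to 3 sites in WT and 0 to 2 in ASH1L-/- libraries. YY1AP1, a partner of the transcription factor YY1, had 1 to 3 and 1 to 2, and DAP3, of the mitochondrial ribosome, had 2 to 5 and 2 to 4. None of the fitted ones among them passed the threshold.

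At promoters the same split between the measures was seen. For 58 genes a promoter site was found in every library, 50 distinct sites in all since some genes share a promoter. The site taken was the one of highest mean log2 fold enrichment within 1000 bases of any transcription start of the gene. It can therefore lie at an alternative start inside the gene. In pileup all 58 had a log2 difference below 0, with a median of -0.41, and 8 passed the threshold, against 3.69% of the 14093 promoter sites of the genome found in every library. In fold enrichment 0 of 58 passed it with limma, 0 had an unadjusted p below 0.05, and the median was 0.02. Among the 8 were the promoters of MTX1, THBS3, LMNA, ENTREP3, GON4L, KHDC4 and MUC1.

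Among genes of the matrix, the cell surface and the nuclear envelope, 0 of 4 fitted changed in number of sites, and 3 of 5 promoters were lower in pileup, beside 8 of 58 in the neighbourhood. At the LMNA promoter, chr1:156106095-156106851, normalised pileup was 178, 182, 278 and 226 reads in WT and 103, 101, 151 and 172 reads in ASH1L-/- libraries, without overlap (log2 difference -0.72, SE 0.130, limma adjusted p = 0.00603). At the MUC1 promoter, chr1:155193202-155195147, it was 189 to 246 and 140 to 174 reads (-0.55, adjusted p = 0.0238). At that of THBS3, which encodes thrombospondin-3, it was 57.8 to 83.9 and 26.8 to 59.3 reads, with overlap (-0.88, adjusted p = 0.0293). The LMNA and THBS3 sites lay at starts inside these genes, away from their outermost starts at bases 156082573 and 155209051. BGLAP, the bone matrix protein osteocalcin, and the metalloprotease gene ADAM15 had differences of -0.25 (adjusted p = 0.473) and -0.42 (adjusted p = 0.200).

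Among genes of mitochondrial proteins, 0 of 3 fitted passed in number of sites and 1 of 4 promoters was lower in pileup. This was MTX1, which encodes metaxin-1 of the outer membrane, at chr1:155208303-155209506, with 61.3, 59.3, 58.7 and 49.1 reads in WT and 29.8, 31.7, 29.1 and 28.1 reads in ASH1L-/- libraries (log2 difference -0.92, SE 0.184, limma adjusted p = 0.00993). Its fold enrichment was 4.37 to 6.42 in WT and 3.99 to 5.78 in ASH1L-/- libraries. MTX1 and MSTO1 have near-identical pseudogenes nearby (MTX1P1, MSTO2P), and reads that fit both copies are lost or uncertain.

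Among RNA processing genes, 0 of 3 fitted passed in number of sites and 1 of 4 promoters was lower in pileup, that of KHDC4 (log2 difference -0.56, limma adjusted p = 0.0230). The RNA editing gene ADAR and the kinase gene CLK2, which had 4 sites in every library, had -0.25 (adjusted p = 0.581) and -0.13 (adjusted p = 0.652). Among transcription and chromatin genes GON4L was the only one past the threshold, in 1 of 4 fitted and 1 of 6 promoters, where its own had 90.9 to 123 reads in WT and 61.5 to 84.7 in ASH1L-/- libraries. For 8 genes of the secretory pathway and protein folding 1 of 4 fitted was lower, CCT3, and 0 of 8 promoters. No gene or promoter passed among 3 ephrin ligands, 4 metabolic enzymes, 6 signalling genes, 2 cell division genes and 6 channels and receptors, with median promoter differences of -0.42, -0.41, -0.35, -0.24 and -0.44 in pileup. Among 21 genes in no group, 2 promoters were lower, that of ENTREP3 among them.

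After UV, the second factor, single sites of the neighbourhood differed, with the main settings at shares near or below those of all sites. The neighbourhood's share of sites after UV was 1.08 times that without UV (exact permutation p = 0.457, adjusted p = 0.6), with overlapping groups. Found in all 4 UV and in no unexposed library were 4 sites (0.686% of all sites were), and 0 the other way (0.0969% of all). These lay at a KCNN3 start within an exon, at ADAR, at EFNA3 and in MSTO1. The KCNN3 site, chr1:154708046-154708574, had fold enrichments of 5.18 and 8.38 in WT and 3.19 and 5.24 in ASH1L-/- libraries after UV. The EFNA3 site printed above had 5.00 and 4.22 in WT and 4.48 and 2.59 in ASH1L-/- libraries.

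In fold enrichment, 4 of the 125 sites were higher after UV (8.97% of all sites were) and 7 were lower (7.35% of all), with a median log2 difference of -0.13. The balance depended on the scaling: without normalisation 16 were higher and 1 was lower, with a median of 0.23 against 0.33 over all sites, and in pileup 15 were higher and 8 lower. For these alternatives the shares of all sites called are not given here, so the counts cannot be set beside them. The count of higher sites was 7 without WT no UV replicate 1 and 2 without WT 3 h post UV replicate 1 or ASH1L-/- 3 h post UV replicate 2. The count of lower sites was 13 without WT 3 h post UV replicate 1, 4 without WT no UV replicate 1 or ASH1L-/- no UV replicate 2, 3 without ASH1L-/- no UV replicate 1 or ASH1L-/- 3 h post UV replicate 2, and 2 without WT 3 h post UV replicate 2 or ASH1L-/- 3 h post UV replicate 1. The largest rise was in a PMF1 intron, chr1:156214166-156214839. It had 4.45, 5.22, 3.32 and 2.19 without UV, WT first, and 11.4, 13.6, 10.2 and 11.6 after UV, without overlap (log2 difference 1.35, SE 0.224, limma adjusted p = 0.000575). A SYT11 intron site rose from 4.43 to 7.79 without UV to 11.5 to 18.1 after UV (0.92, adjusted p = 0.00121), and SYT11 encodes a synaptotagmin of vesicle traffic. A site in PMF1 nearest to BGLAP rose by 0.81 (adjusted p = 0.0179) and the EFNA1 promoter by 0.60 (adjusted p = 0.0464). Among the 7 that fell were the promoters of PMF1 (-0.81, adjusted p = 0.00111), UBE2Q1 (-0.75, adjusted p = 0.0071) and GON4L (-0.57, adjusted p = 0.0348) and the intergenic site 36674 bases from KCNN3 (-0.68, adjusted p = 0.0277).

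The response to UV was not shown to depend on genotype. In limma's test of the UV by genotype interaction 0 of the 125 sites passed in either direction (0% of all 60324 sites did), and 3 (2.4%) had an unadjusted p below 0.05, against 3.77% of all. In number of sites per gene 0 of 45 genes passed for UV in either direction (0.0158% of all genes rose and 0.0158% fell), and 4 (8.89%) had an unadjusted p below 0.05, against 13.4% of all. EFNA3 had 1, 1, 2 and 4 sites in WT and 1, 1, 2 and 4 in ASH1L-/- libraries, in the order no UV and post UV.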

How the data were processed

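ATAC-seq was measured in 8 U2OS libraries, grouped by their titles. The authors trimmed adapters (cutadapt 1.9.1), aligned reads to hg38 without chromosome Y (Bowtie2 2.4.5), removed duplicates, reads of low mapping quality and blacklisted reads, and called peaks in each library (MACS2 2.2.7.1). The deposited lists give, per summit, a score, the fold enrichment (a ratio to local background) and −log10 p-value and q-value, all with p of at most 0.01. Here records of the same interval were joined as a region, regions of all lists were merged into sites, and pileup and background were recovered from fold enrichment and p-value. Genes are from GENCODE v44. Tests were limma 3.58.1 in R 4.3.3 over all sites, genes or windows with Benjamini-Hochberg adjustment at 0.05, and exact permutation tests in Python. Scripts were tested on simulated data. Named genes were those nearest to ASH1L, past a threshold, with separating sites or the 10 largest differences, and in the listed groups. Members and lists were chosen with earlier results of these data known. The replicate numbers of the titles did not pair libraries: correlations of deviations between same-numbered libraries were -0.13 to 0.16. Alternatives are in the closing section. Some genes and sequences are not reported here.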

Additional observations from a re-analysis of the deposited data

How the results depend on the processing

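Of 114 values that 26 results took under other settings, 89 had the direction and call given above, 13 fell short of the threshold, 12 counts moved and 0 reversed. Of 208 values with 1 library left out, the numbers were 152, 21, 34 and 1. Without normalisation between libraries of unequal depth, 0 sites were higher in fold enrichment by genotype, pileup called 1 higher and 0 lower, and UV called 16 higher and 1 lower. Median centring gave 11 lower by UV, pileup in place of fold enrichment gave 27 lower by genotype and 15 higher by UV, and the top quartile of each list gave 1 site of ASH1L-/- only. No scaling by the number of sites, or q below 0.05, gave 0 genes lower by genotype, and the windows without scaling had differences of -0.22 (limma adjusted p = 0.343) before and -0.33 (0.189) after ASH1L. Bases covered gave a difference of -0.13 after ASH1L (exact permutation p = 0.0571). With the replicate number as a block, the exact permutation p of the share was 0.0556, the smallest this design allows, at differences of -0.32 for both flanks and -0.16 for each, and 1 gene, EFNA3, was called for UV. With the block, UV called 5 sites higher and 10 lower in fold enrichment, and genotype 25 lower in pileup; the other counts were as above. The numbers did not pair libraries, with correlations of -0.13 to 0.16 between same-numbered ones. Causes of these shifts were not tested.

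With 1 library left out, sites higher by genotype numbered 1 to 3 in fold enrichment and 2 to 3 in pileup, and lower ones 0 to 1 and 7 to 45. By UV 2 to 7 were higher and 2 to 13 lower. Sites of ASH1L-/- only numbered 0 to 1 and of WT only 3 to 5, genes lower by genotype 0 to 2 and higher by UV 0 to 1. The share differed by genotype by -0.37 to -0.26 per 1000 in both flanks and by -0.19 to -0.12 after ASH1L. The UV difference after ASH1L was -0.0185 to 0.0922 per 1000 and reversed without ASH1L-/- no UV replicate 1. With 2 libraries a group and shallow libraries, small differences at single sites may have been missed.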
